A study of Homo sapiens with 12 samples.

Results

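The IFIT genes (interferon-induced proteins with tetratricopeptide repeats) IFIT1, IFIT2, IFIT3 and IFIT5 were selected by gene name in the count table. These 4 genes were 4 of the 62757 genes listed, and all 4 were among the 13896 genes with enough counts to be tested. Counts came from RNA sequencing of ARPE-19, an established line of human retinal pigment epithelium, in 12 libraries. All cells, the control included, had been treated with 3 µM N-(4-hydroxyphenyl)retinamide (fenretinide, a synthetic retinoid) for 120 h to induce trans-differentiation. One group received AAV9-AIPL1wt, an adeno-associated virus of serotype 9 that carries the native coding sequence of the photoreceptor chaperone AIPL1. A second group received AAV9-AIPL1co with a codon-optimized version of the same sequence, and another received AAV9-GFP with a fluorescent reporter. The last group was the non-transduced control. Each group had 3 replicates. The vector dose was 100000 vector genomes per cell, and the time from transduction is given as 18 h in the methods of the study and as 24 h in its results. All libraries come from 1 cell line. The methods of the study call the replicates biological, and p-values measure the spread between these libraries of a single line.

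IFIT proteins are part of the cell-intrinsic antiviral response. IFIT1 binds the ends of RNA whose cap lacks the methyl marks of self mRNA and blocks its translation. IFIT3 and IFIT2 assemble with IFIT1, and IFIT3 stabilises it, while IFIT5 works alone and binds RNA that carries a triphosphate end. Their genes are switched on by type I and type III interferons through ISGF3, a complex that contains STAT2 and IRF9 and binds the interferon-stimulated response element. IRF factors activated by nucleic acid sensors can also switch them on without secreted interferon.

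The promoters of the family are shown because the response element that defines these genes can be read directly in them. RefSeq start sites were found for IFIT1, IFIT3 and IFIT5, 3 of the 4 members, and IFIT2 had no entry. Each window runs from 250 bases before to 50 bases after the start on the plus strand of GRCh38.p14, and capitals mark matches to TTTCNNTTTC, the reverse complement of GAAANNGAAA, both strands having been searched.
IFIT1, chr10:89392373-89392672: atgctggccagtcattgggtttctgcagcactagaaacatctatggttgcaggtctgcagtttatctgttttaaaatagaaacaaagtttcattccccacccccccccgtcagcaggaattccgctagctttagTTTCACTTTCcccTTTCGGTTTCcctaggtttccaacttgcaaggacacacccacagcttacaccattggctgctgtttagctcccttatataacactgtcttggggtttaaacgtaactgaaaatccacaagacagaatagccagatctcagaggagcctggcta
IFIT3, chr10:89327747-89328046: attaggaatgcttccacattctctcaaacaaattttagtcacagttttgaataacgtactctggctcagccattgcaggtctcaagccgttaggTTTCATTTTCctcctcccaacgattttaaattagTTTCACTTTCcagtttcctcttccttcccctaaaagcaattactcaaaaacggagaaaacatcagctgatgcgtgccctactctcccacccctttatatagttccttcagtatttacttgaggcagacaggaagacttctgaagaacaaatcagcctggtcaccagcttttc
IFIT5, chr10:89414318-89414617: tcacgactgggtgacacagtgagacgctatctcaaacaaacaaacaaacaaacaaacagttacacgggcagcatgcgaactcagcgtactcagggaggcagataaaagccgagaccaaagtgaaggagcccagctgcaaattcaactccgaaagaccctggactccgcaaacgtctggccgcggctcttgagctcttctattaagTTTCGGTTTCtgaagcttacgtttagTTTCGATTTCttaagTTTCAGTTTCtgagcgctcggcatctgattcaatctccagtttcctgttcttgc
The IFIT1 window held 2 matches, which began 116 and 103 bases before the start. The IFIT3 window held 2, at 156 and 122 bases before the start, and a second RefSeq window of IFIT3, 89332279 to 89332578, also held 2, at 94 and 51 bases. The IFIT5 window held 3 matches close to the start, at 45, 19 and 4 bases. IFIT1 and both windows of IFIT3 shared the match TTTCACTTTC, and IFIT1 and IFIT5 shared TTTCGGTTTC. The second window of IFIT3 and that of IFIT5 shared TTTCAGTTTC. Of all 35116 windows of this length 3.57% held at least 1 match, and the window of IFIT1B, a gene of the same cluster with 0 counts in all 12 libraries, held 0. A match describes the letters of the window and does not show that a factor bound there.

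The 4 genes lie in 1 cluster on the plus strand of chromosome 10. In Gencode 44 IFIT2 (ENSG00000119922) spans 89283694 to 89309271, IFIT3 (ENSG00000119917) 89327307 to 89377473, IFIT1 (ENSG00000185745) 89392546 to 89406487 and IFIT5 (ENSG00000152778) 89414568 to 89421605. The counted exons covered 4326, 5067, 4614 and 4369 bases, so the members were similar in length. The libraries were not stranded, and reads over exons of 2 genes were not assigned. IFIT2 shared 524 of its exon bases (12.1%) with the long noncoding RNA ENSG00000232110 on the same strand and 65 bases with LIPA on the opposite strand, and IFIT3 shared 94 bases with LIPA. No exon base of IFIT1 was shared with LIPA, whose gene lies across it.

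Gene counts ranged from 6322811 to 9075660 per library. Non-transduced control replicate 1 differed from the other control libraries far more than any other replicates did from each other (chi-square per degree of freedom of 46 and 52.5, against 2.94 to 15.2). It was left out of the tests, as the study did. The libraries carry 2 dates in their file names, both kept control libraries are of the second date, and each vector group has 2 libraries of the first date and 1 of the second. Counts weighted by exon GC content averaged 49.3 to 49.7% GC in the control and 50.2 to 50.9% in the transduced libraries. The vector entry of AIPL1co had 11, 13 and 19 counts in the AAV9-AIPL1co libraries and 0 elsewhere, and a GFP entry had 2, 1 and 4 counts in the AAV9-GFP libraries and 0 elsewhere. The entry of AIPL1wt had 0 counts in all 12 libraries, so this transgene gives no check of the AAV9-AIPL1wt label. Reads that fit both this native sequence and the AIPL1 gene would align to several places and not be counted. The 0 counts therefore do not show that the transgene was silent. Of 10 retinal pigment epithelium markers 9 had counts, and RPE65, the visual cycle isomerase, had 0 in all libraries. Of 6 blood and immune cell markers PTPRC, CD14 and CD68 had counts and LYZ, CLEC4C and LILRA4 were at 0, and the 6 together summed to 1.34 to 7.46 normalized counts in the AAV9-AIPL1wt, 0.942 to 7.91 in the AAV9-AIPL1co, 1.05 to 2.88 in the AAV9-GFP and 1.65 to 4.71 in the fitted control libraries.

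IFIT1 rose in cells transduced with AAV9-AIPL1wt from near the bottom of the family to its top. Its normalized counts (counts scaled to a common library size) in replicates 1, 2 and 3 were 1226, 1566 and 1276 with AAV9-AIPL1wt, 41.5, 54.9 and 63.3 in the AAV9-AIPL1co libraries, and 38.7, 31.7 and 30.8 with AAV9-GFP. In the control they were 30.1 and 43.7 in replicates 2 and 3, and 50.4 in replicate 1. All 3 AAV9-AIPL1wt libraries stood far above all others, AAV9-AIPL1co lay above AAV9-GFP without overlap, and the control overlapped both. Group means were 1356 ± 183 (SD, n = 3) with AAV9-AIPL1wt, 53.2 ± 11 (n = 3) with AAV9-AIPL1co, 36.9 ± 9.61 (n = 2) in the control and 33.7 ± 4.31 (n = 3) with AAV9-GFP. IFIT1 was 25.1-fold higher with AAV9-AIPL1wt than with AAV9-AIPL1co (log2 fold change 4.65 ± 0.159, SE, adjusted p = 9.1e-13). It was 35.2-fold higher than in the control (log2 fold change 5.14 ± 0.195, adjusted p = 6.09e-12) and 39.4-fold higher than with AAV9-GFP (5.30 ± 0.169, adjusted p = 2.68e-13). In each of these 3 comparisons IFIT1 had the smallest p-value of the 13896 genes tested, and by size of the increase it ranked 4, 12 and 5 from the top. These are bulk libraries, in which more cells of a responding kind and more RNA per cell cannot be told apart. Between the other groups the values were close. AAV9-AIPL1co was 1.57-fold above AAV9-GFP (log2 fold change 0.65 ± 0.214, adjusted p = 0.0269), a call that ended without AAV9-AIPL1co replicate 2 (adjusted p = 0.0795) or 3 (0.117) and without AAV9-GFP replicate 2 (0.0835) or 3 (0.0984). AAV9-AIPL1co against the control did not pass (log2 fold change 0.48, 95% interval 0.0048 to 0.96, adjusted p = 0.0895), though it did without AAV9-AIPL1co replicate 1 (0.66, adjusted p = 0.0337). The difference also passed with offsets for GC content (0.76, adjusted p = 0.00977) and with these and a term for the replicate number (0.78, adjusted p = 0.012). AAV9-GFP against the control did not pass (-0.16, 95% interval -0.68 to 0.35).

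IFIT3, the partner that stabilises IFIT1, was also highest with AAV9-AIPL1wt and was the member that separated the remaining groups most clearly. Its normalized counts were 665, 706 and 739 with AAV9-AIPL1wt, 204, 269 and 188 in the AAV9-AIPL1co libraries, and 117, 84.6 and 120 with AAV9-GFP. The control had 150 and 166 in replicates 2 and 3, and 222 in replicate 1. AAV9-AIPL1wt lay above all other libraries, AAV9-AIPL1co above the 2 fitted controls, and these above AAV9-GFP, with no overlap between the 11 fitted libraries of different groups. Control replicate 1 lay inside the AAV9-AIPL1co range. The level with AAV9-AIPL1wt was 3.13-fold that with AAV9-AIPL1co (log2 fold change 1.65 ± 0.139, adjusted p = 1.16e-07), 4.31-fold that of the control (2.11 ± 0.165, adjusted p = 2.04e-08) and 6.46-fold that with AAV9-GFP (2.69 ± 0.151, adjusted p = 8.14e-10). AAV9-AIPL1co was 2.06-fold above AAV9-GFP (1.05 ± 0.156, adjusted p = 6.58e-05), a call that held in all 27 alternative fits at an adjusted p under 0.05 and was lost under the stricter thresholds of the study. Against the control, the difference of AAV9-AIPL1co was small (0.46 ± 0.166, adjusted p = 0.0289). With all 12 libraries it was 0.30 (adjusted p = 0.211), and the call was also lost without AAV9-AIPL1co replicate 2 (0.29, adjusted p = 0.169), control replicate 2 (0.41, adjusted p = 0.161) or control replicate 3 (0.55, adjusted p = 0.0738). IFIT3 was lower with AAV9-GFP than in the control (-0.58 ± 0.175, adjusted p = 0.0446). That call ended in 13 of 26 alternatives, among them without any 1 of the 3 AAV9-GFP libraries, control replicate 2 or 3, AAV9-AIPL1wt replicate 3 or AAV9-AIPL1co replicate 1, where the log2 fold change was -0.65 to -0.41.

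IFIT2, which assembles with IFIT1 and IFIT3 and has been linked to cell death, followed another order. It had 107, 163 and 116 normalized counts with AAV9-AIPL1wt, 49.9, 65.5 and 50.9 in the AAV9-AIPL1co libraries, and 83.7, 43.3 and 68.0 with AAV9-GFP. In the control it had 109 and 84.2 in replicates 2 and 3, and 88.2 in replicate 1. The AAV9-AIPL1wt range met that of the control, AAV9-AIPL1co lay wholly below the control, and AAV9-GFP spanned the AAV9-AIPL1co values. IFIT2 was 2.29-fold higher with AAV9-AIPL1wt than with AAV9-AIPL1co (log2 fold change 1.2 ± 0.222, adjusted p = 0.000345) and 1.97-fold higher than with AAV9-GFP (0.98 ± 0.218, adjusted p = 0.00105). Against the control the difference did not pass (0.39 ± 0.229, 95% interval -0.095 to 0.87, adjusted p = 0.162). With offsets for GC content it did (0.68, adjusted p = 0.0138). AAV9-AIPL1co was below the control (-0.81 ± 0.246, adjusted p = 0.0114), a call lost with GC offsets (-0.56, adjusted p = 0.0679) and without control replicate 2 (-0.60, adjusted p = 0.145). IFIT2 with AAV9-GFP lay between (-0.60 against the control, 95% interval -1.10 to -0.088, adjusted p = 0.12), and AAV9-AIPL1co and AAV9-GFP differed by -0.22 (95% interval -0.71 to 0.28, adjusted p = 0.524).

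IFIT5, the member that acts alone, changed least with AAV9-AIPL1wt among the members that passed against the control. Normalized counts were 487, 618 and 510 with AAV9-AIPL1wt, 261, 287 and 336 in the AAV9-AIPL1co libraries, and 246, 253 and 311 with AAV9-GFP. Control replicates 2 and 3 had 339 and 317, and replicate 1 had 314. The 3 AAV9-AIPL1wt libraries were above all others, the AAV9-AIPL1co range reached into that of the control, and AAV9-GFP lay just below it. IFIT5 was 1.80-fold higher with AAV9-AIPL1wt than with AAV9-AIPL1co (log2 fold change 0.85 ± 0.128, adjusted p = 4.87e-05), 1.59-fold above the control (0.67 ± 0.142, adjusted p = 6e-04) and 1.96-fold above AAV9-GFP (0.97 ± 0.129, adjusted p = 6.88e-06). Among the other 3 groups the differences did not pass. They were -0.17 (95% interval -0.48 to 0.13) for AAV9-AIPL1co and -0.30 (95% interval -0.60 to 0.00059) for AAV9-GFP against the control, and 0.13 (95% interval -0.15 to 0.40) between these vectors.

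Counted over the family, IFIT genes were higher with AAV9-AIPL1wt than in every other group. At an adjusted p under 0.05, 4 of 4 members were higher than with AAV9-AIPL1co, where 19.3% of all genes tested were called higher and 22.3% lower. Likewise 4 of 4 were higher than with AAV9-GFP, against 25.6% of all genes called higher and 25.5% lower, and 3 of 4 were higher than in the control, against 26.4% higher and 30.0% lower. AAV9-AIPL1co against the control gave 1 member higher (IFIT3) and 1 lower (IFIT2), near the 22.4% and 24.5% of all genes. AAV9-AIPL1co against AAV9-GFP gave 2 members higher (IFIT1 and IFIT3), against 16.1% of all genes called higher and 14.8% lower. AAV9-GFP against the control gave 1 member lower (IFIT3), against 2.30% of all genes called higher and 6.66% lower. The median log2 fold change of the 4 members with AAV9-AIPL1wt was 1.42 against AAV9-AIPL1co, 1.84 against AAV9-GFP and 1.39 against the control, while the medians over all genes tested were -0.017, 0.018 and -0.036. Comparisons that share a group share its libraries and are not independent.

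**Figure D1:**
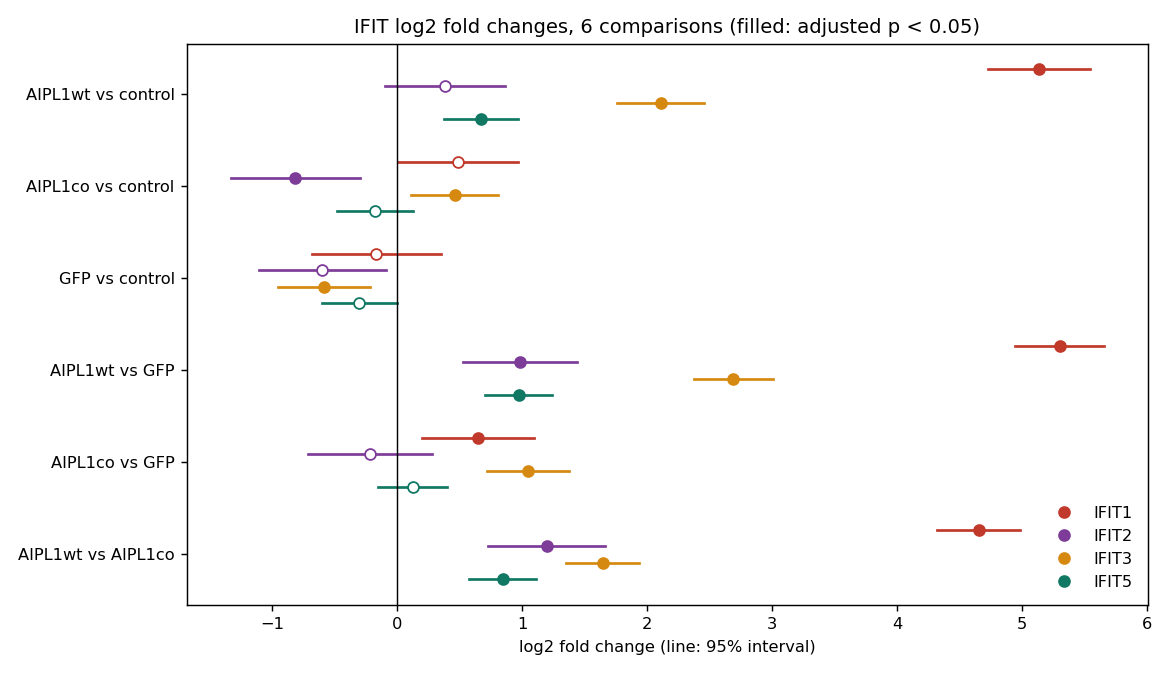
Log2 fold changes (points) with 95% intervals (lines) of the 4 IFIT genes in the 6 comparisons, filled where the adjusted p was under 0.05. IFIT1 stands at 4.65 to 5.30 wherever AAV9-AIPL1wt is compared, apart from the intervals of the other members.

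The make-up of the family changed along with its level. In TPM, transcript levels that scale counts by exon length and library total, the 4 genes summed to 236 ± 36.5 (SD, n = 3) with AAV9-AIPL1wt, 55.0 ± 5.93 (n = 3) with AAV9-AIPL1co, 44 ± 6.15 (n = 3) with AAV9-GFP and 62.3 ± 1.04 (n = 2) in the control. IFIT5 was the most abundant member outside AAV9-AIPL1wt, with 49.9 ± 5.05% of the summed TPM with AAV9-AIPL1co, 58.8 ± 5.62% with AAV9-GFP and 54.9 ± 1.28% in the control. With AAV9-AIPL1wt it held 21.0 ± 0.455%. IFIT1 held 50.1 ± 1.38% with AAV9-AIPL1wt (48.9 to 51.6% in the 3 libraries) and 8.49 ± 1.23%, 7.01 ± 1.16% and 5.88 ± 1.67% with AAV9-AIPL1co, with AAV9-GFP and in the control. The order of levels per length was IFIT1, IFIT3, IFIT5, IFIT2 in the means of AAV9-AIPL1wt (118, 55.8, 49.6 and 12 TPM), although the IFIT3 range (48.9 to 60.9 TPM) and the IFIT5 range (41.6 to 58.5 TPM) overlapped. In the control it was IFIT5, IFIT3, IFIT2, IFIT1 (34.2, 14.2, 10.2 and 3.66 TPM), and the ranges of neighbours did not overlap there. The share of IFIT3 was 32.1 ± 5.02% with AAV9-AIPL1co, 23.9 ± 2.39% with AAV9-AIPL1wt, 22.8 ± 2.21% in the control and 20 ± 1.67% with AAV9-GFP, and that of IFIT2 went from 5.04 ± 0.6% with AAV9-AIPL1wt to 16.3 ± 2.6% in the control.

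**Figure D2:**
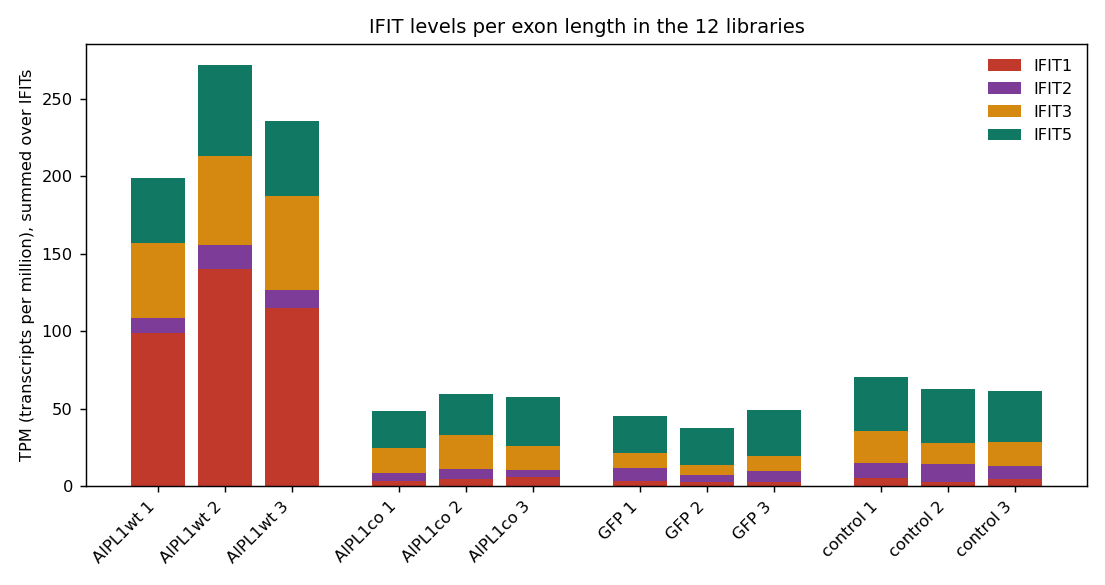
Summed level of the 4 IFIT genes in TPM in each of the 12 libraries, stacked by gene. The AAV9-AIPL1wt bars reach 199 to 272 TPM, of which IFIT1 is 48.9 to 51.6%, and the fitted libraries of the other groups reach 37.3 to 63.0 TPM.

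Within each file date the order of the vectors was kept for IFIT1, IFIT3 and IFIT5. The log2 ratio of mean normalized counts of IFIT1 between AAV9-AIPL1wt and AAV9-AIPL1co was 4.40 in the first date (2 libraries each) and 5.24 in the second (1 each), and that of IFIT3 was 1.62 and 1.79. IFIT2 gave 0.94 and 1.71 in the same comparison and IFIT5 gave 0.68 and 1.24. For AAV9-AIPL1wt against AAV9-GFP, IFIT2 gave 0.56 in the first and 1.91 in the second date, with 1 library of each group behind the second value, so the date and the single libraries cannot be told apart. Against the control, the first date has only control replicate 1, and AAV9-AIPL1wt stood above it by 4.63 for IFIT1, 0.34 for IFIT2, 1.66 for IFIT3 and 0.67 for IFIT5. The second date gave 5.41, 0.76, 2.16 and 0.91. The ratio of AAV9-AIPL1co to the control for IFIT3 was 0.041 in the first and 0.37 in the second date, and for IFIT2 it was -0.60 and -0.95. AAV9-GFP against the control gave -0.90 for IFIT3 in both dates.

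Other genes of the interferon response were also higher with AAV9-AIPL1wt than with AAV9-AIPL1co, a difference that can hold a fall with AAV9-AIPL1co as well as a rise. Of 30 companion interferon-stimulated genes 24 had enough counts to be tested, and 22 of these were higher with AAV9-AIPL1wt than with AAV9-AIPL1co (19 to 22 over the alternatives run), with a median log2 fold change of 2.20. The remaining 2 did not pass, and of all genes tested 19.3% were called higher and 22.3% lower. Of the same 24 genes 23 were higher with AAV9-AIPL1wt than with AAV9-GFP, against 25.6% of all genes called higher. Against the control 21 were higher and 1 lower, where 26.4% of all genes were called higher and 30.0% lower. RSAD2, OAS2 and OASL had means of 39.55, 11.3 and 17.5 normalized counts with AAV9-AIPL1wt and at most 4.1 in any other group. They had enough counts to be tested only through AAV9-AIPL1wt. Their direction in these counts and in the median was therefore largely fixed in advance. With AAV9-AIPL1co against the control 2 of the 24 were higher and 8 lower, with a median of -0.37, against 22.4% of all genes called higher and 24.5% lower. ISG15, a ubiquitin-like modifier, had 2065, 1453 and 1627 normalized counts with AAV9-AIPL1wt and 97.2 to 139 with AAV9-AIPL1co, a log2 fold change of 3.81 ± 0.166 (adjusted p = 3.5e-11). OAS1, which makes the activator of RNase L, had 330 to 465 against 4.52 to 11.6 (5.32 ± 0.329, adjusted p = 3.1e-09), and IFI6, a small antiviral membrane protein, had 1082 to 2378 against 93.8 to 136 (3.87 ± 0.249, adjusted p = 3.99e-09). RSAD2 (viperin) had 107 counts over the 3 AAV9-AIPL1wt libraries and 0 with AAV9-AIPL1co, which is at least 39.2-fold higher taking 3 counts summed over the AAV9-AIPL1co libraries as the floor. The fitted value of RSAD2 and this bound give the same list median.

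The interferon ligands were nearly silent in all groups. Of 21 ligand genes 4 had any count, and these were 229 for IFNE, 5 for IFNA1, 2 for IFNK and 1 for IFNB1 over all 12 libraries. IFNE, an epithelial interferon and the only ligand tested, had 10.7, 9.33 and 12.3 normalized counts with AAV9-AIPL1wt and 4.71 to 13.6 with AAV9-AIPL1co (log2 fold change 0.15, 95% interval -0.65 to 0.95, adjusted p = 0.776). It was lower with AAV9-AIPL1wt than in the control, where it had 25.4 and 31.4 in the fitted libraries (-1.45 ± 0.334, adjusted p = 0.00125). IFNE was also called lower with AAV9-AIPL1co than in the control (-1.60). Against AAV9-GFP it was called lower with AAV9-AIPL1wt (-0.97) and with AAV9-AIPL1co (-1.13), calls that were lost in some alternatives. At this depth a brief or low expression of other ligands was not detectable. Reads aligned to several places, 13.3 to 24.5% of those listed, were not counted, so reads that fit several ligands alike would be missed.

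Of 9 receptor and kinase genes 1 was lower with AAV9-AIPL1wt than with AAV9-AIPL1co and 8 did not pass. Of all genes tested 22.3% were called lower and 19.3% higher in this comparison. The lower gene was TYK2, a kinase bound to the type I interferon receptor, with 394 to 452 normalized counts against 641 to 748 (-0.72 ± 0.102, adjusted p = 2.79e-05). JAK2 (0.70, adjusted p = 0.0511), IL10RB (0.37, adjusted p = 0.56) and IFNLR1 (-0.29, adjusted p = 0.14) did not pass. Of ISGF3, IRF9 and STAT2 moved in opposite directions. IRF9, the DNA-binding subunit, had 68.0 to 97.0 normalized counts with AAV9-AIPL1wt and 26.4 to 28.0 with AAV9-AIPL1co (1.57 ± 0.216, adjusted p = 2e-05). STAT2 was lower with AAV9-AIPL1wt than with AAV9-AIPL1co, at 741 to 1070 against 1095 to 1247 (-0.39 ± 0.125, adjusted p = 0.0171), a call lost without AAV9-AIPL1co replicate 1 or 2 or AAV9-AIPL1wt replicate 2, and with all 12 libraries. Against the control STAT2 was higher in both AIPL1 groups. The difference was 0.73 for AAV9-AIPL1wt (adjusted p = 0.00032) and 1.12 for AAV9-AIPL1co (adjusted p = 7.93e-06). Control replicate 1 had 1203 normalized counts of STAT2, the other controls 561 and 522, and with all 12 libraries STAT2 was not called higher for AAV9-AIPL1co.

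Among 11 sensors and adaptors 5 were higher with AAV9-AIPL1wt than with AAV9-AIPL1co and 6 did not pass. Of all genes tested 19.3% were called higher and 22.3% lower in this comparison. IFIH1 (MDA5), a sensor of long double-stranded RNA that is itself interferon-inducible and also stands in the companion list, had 285 to 398 normalized counts against 73.5 to 90.6 (2.06 ± 0.151, adjusted p = 1.74e-08). STING1, the adaptor of cytosolic DNA sensing, had 243 to 289 against 90.4 to 143 (1.10 ± 0.157, adjusted p = 2.84e-05). STING1 with AAV9-AIPL1wt differed from the control by -0.11 (adjusted p = 0.587), and AAV9-AIPL1co was below the control (-1.21 ± 0.169, adjusted p = 1.82e-05). The same held for DHX58 (LGP2), which differed between the AIPL1 vectors by 1.25 (adjusted p = 0.0035), from the control by 0.28 with AAV9-AIPL1wt (adjusted p = 0.454) and from the control by -0.97 with AAV9-AIPL1co (adjusted p = 0.0252). TICAM1, the adaptor of TLR3, was higher with AAV9-AIPL1wt than with AAV9-AIPL1co by 0.54 (adjusted p = 0.00175). Of 5 IRF factors 2 were higher (IRF7 and IRF2), 2 were lower (IRF5 and IRF3) and 1 did not pass. The shares of all genes tested, 19.3% higher and 22.3% lower, stand beside these counts too. IRF7, an interferon-inducible activator, had 709 to 955 normalized counts with AAV9-AIPL1wt, 89.3 to 143 with AAV9-AIPL1co and 86.7 and 93.3 in the fitted controls (2.73 ± 0.157 between the AIPL1 vectors, adjusted p = 1.57e-09). The other called differences were small, at 0.36 for IRF2 (adjusted p = 0.0292), -0.30 for IRF3 (adjusted p = 0.0285) and -0.69 for IRF5 (adjusted p = 0.0452), and they varied with the libraries used. No IRF factor was called lower with all 12 libraries, nor without any 1 of AAV9-AIPL1co replicates 1, 2 and 3, AAV9-AIPL1wt replicates 2 and 3, AAV9-GFP replicate 3 and control replicates 2 and 3. The count of higher IRF factors was 1 without any 1 of these AIPL1 libraries and with all 12.

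Of 5 feedback inhibitors 3 were higher with AAV9-AIPL1wt than with AAV9-AIPL1co, against 19.3% of all genes tested called higher and 22.3% lower. USP18, which removes ISG15 and damps receptor signalling, had 28.0 to 34.9 normalized counts against 1.93 to 4.71 (3.14 ± 0.372, adjusted p = 4.26e-06). Its means were 8.61 with AAV9-GFP and 4.42 in the control. USP18 thus had enough counts to be tested mainly through AAV9-AIPL1wt, which largely fixed its direction in advance. SOCS3 was higher by 1.28 (adjusted p = 0.000238) and PIAS1 by 0.45 (adjusted p = 0.0316), and SOCS1 did not pass (0.94, adjusted p = 0.255).

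**Figure D3:**
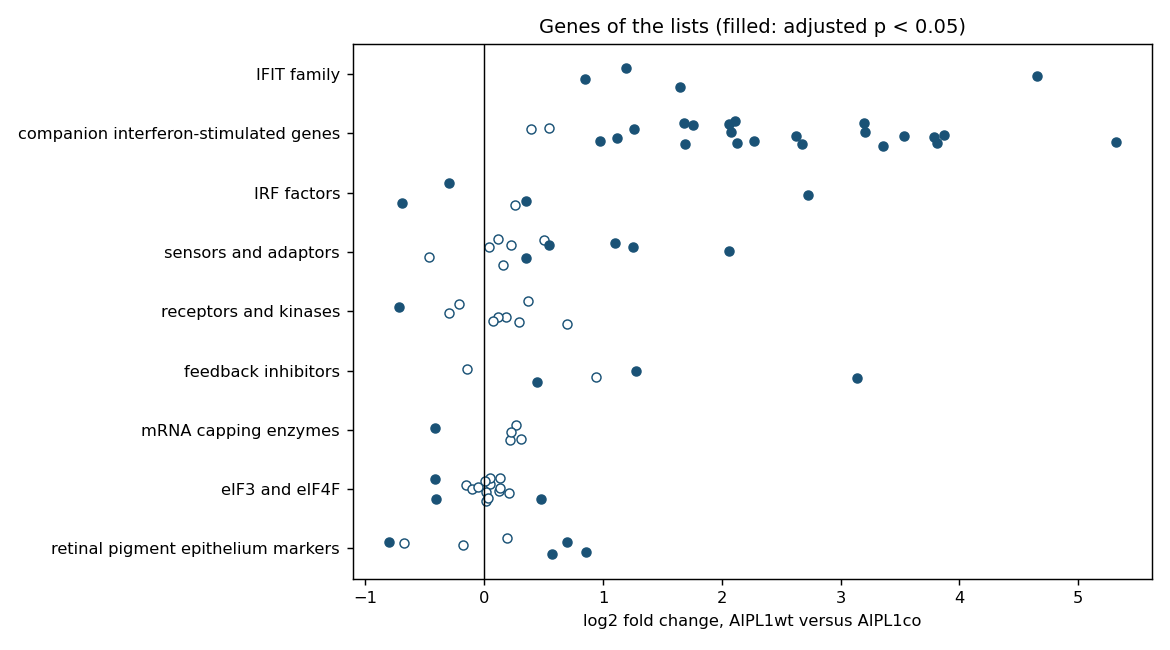
Log2 fold changes between AAV9-AIPL1wt and AAV9-AIPL1co for the tested genes of 8 lists and the IFIT family, 1 point per gene, filled where the adjusted p was under 0.05. RSAD2 is left out because it had 0 counts with AAV9-AIPL1co. Of the 24 companion genes tested 22 were higher, against 19.3% of all genes tested, while the IRF factors hold points on both sides of 0. Some companion genes had enough counts to be tested only through AAV9-AIPL1wt, which largely fixed their direction.

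Of the genes of mRNA capping and translation initiation, shares near those of all genes tested or below them were called (19.3% of all genes higher and 22.3% lower). IFIT1 competes for capped RNA that the capping enzymes have not fully methylated, and of 5 capping genes 1, the cap methyltransferase RNMT, was lower with AAV9-AIPL1wt than with AAV9-AIPL1co (-0.41 ± 0.114, adjusted p = 0.0073), a call lost without AAV9-AIPL1wt replicate 3. CMTR2 (0.22), RNGTT (0.31) and RAMAC (0.27) did not pass. IFIT1 and IFIT2 are known to bind the initiation factor eIF3. Of 16 eIF3 and eIF4F genes 1 was higher, EIF3J (0.48 ± 0.141, adjusted p = 0.0113), and 2 were lower, EIF3I (-0.41 ± 0.0939, adjusted p = 0.00196) and EIF3K (-0.41 ± 0.112, adjusted p = 0.00688). EIF3J lost its call without AAV9-AIPL1co replicate 1, and EIF4A1 did not pass (0.21, adjusted p = 0.412).

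Of 7 retinal pigment epithelium markers tested, 3 were higher and 1 was lower with AAV9-AIPL1wt than with AAV9-AIPL1co. Of all genes tested 19.3% were called higher and 22.3% lower. KRT18 (0.86, adjusted p = 1.67e-06) and KRT8 (0.70, adjusted p = 1.29e-05), the keratins of simple epithelia, were higher, and RLBP1, the retinaldehyde-binding protein, was lower (-0.80, adjusted p = 0.0317). BEST1, a chloride channel of this epithelium, did not pass (-0.68, adjusted p = 0.234). The count of lower markers was 0 without AAV9-AIPL1co replicate 1, 2 or 3 or AAV9-AIPL1wt replicate 1 or 3, 0 with all 12 libraries and with DESeq2, and 2 without AAV9-AIPL1wt replicate 2. The 10 markers summed to 6092 to 6800 normalized counts with AAV9-AIPL1wt, 4023 to 4327 with AAV9-AIPL1co, 6598 to 7849 under AAV9-GFP and 7801 to 9089 for fitted controls, and the part of this difference in the IFIT values was not tested. Control replicate 1 summed to 4751. Most of the sum was KRT8 (means 1915 with AAV9-AIPL1co and 4359 in the control) and KRT18 (1181 and 2722). The markers did not move as a set, as RLBP1 had 23.9 with AAV9-AIPL1co and 10.1 in the control. Against the control 1 marker was called higher and 4 lower with AAV9-AIPL1co, where 22.4% of all genes were called higher and 24.5% lower.

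Several neighbours of the IFIT cluster were lower with AAV9-AIPL1wt than with AAV9-AIPL1co, unlike the IFIT genes themselves. Of 8 neighbours in the list for this locus, 1 was higher and 5 were lower with AAV9-AIPL1wt than with AAV9-AIPL1co (3 lower with all 12 libraries), against 19.3% and 22.3% of all genes tested. LIPA, the lysosomal lipase whose gene overlaps IFIT1, IFIT2 and IFIT3 on the opposite strand, was lower (-0.70 ± 0.112, adjusted p = 9.03e-05). Downstream of IFIT5, SLC16A12 (-0.69, adjusted p = 0.0233), PANK1 (-0.52, adjusted p = 0.0234) and KIF20B (-0.91, adjusted p = 0.00137) were lower. Upstream, ACTA2, smooth muscle actin, was lower (-2.38 ± 0.179, adjusted p = 2.5e-08), and FAS did not pass (-0.27, adjusted p = 0.0976). Farther from the cluster, STAMBPL1 was higher (0.42, adjusted p = 0.0128), a call lost without AAV9-AIPL1co replicate 1, and RPP30 did not pass (-0.31, adjusted p = 0.079). The long noncoding RNA ENSG00000232110, whose exons overlap those of IFIT2, was higher with AAV9-AIPL1wt than in the control (1.51, adjusted p = 0.00316), where IFIT2 did not pass, and it did not pass against AAV9-AIPL1co (0.56, adjusted p = 0.164). CH25H had 1 count in all 12 libraries.

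**Figure D4:**
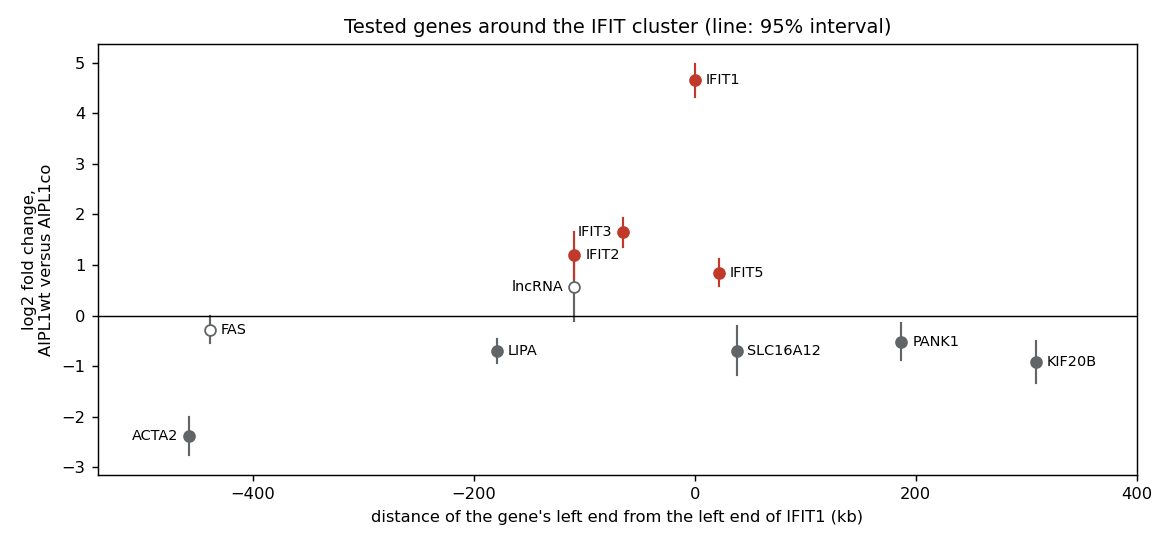
Log2 fold change between AAV9-AIPL1wt and AAV9-AIPL1co (points, with 95% intervals) of the tested genes around the IFIT cluster against their distance in kb from IFIT1, with IFIT genes in red and open points where the adjusted p was 0.05 or more. The 4 IFIT genes lie above 0, LIPA, SLC16A12, PANK1 and KIF20B lie below it, and ACTA2 is lowest at -2.38. STAMBPL1 and RPP30 of the locus list lie outside the plotted stretch and are not shown.

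Over the 11 fitted libraries the log2 counts of the members, scaled to library size, followed each other to different degrees. Pearson's r was 0.947 for IFIT1 with IFIT3, 0.918 for IFIT1 with IFIT5 and 0.885 for IFIT3 with IFIT5. IFIT2 was least like the rest, with 0.696 to IFIT1, 0.679 to IFIT3 and 0.799 to IFIT5. These values are descriptions over libraries that fall into 4 groups with 1 group far from the others for IFIT1. The genes most like IFIT1 were PLSCR1 (r = 0.99), ACIN1 (0.989), ISG15 (0.984), ETS2 (0.984) and BCL2L2 (0.984). IFIT2 was followed most closely by TUG1 (0.956), DSC3 (0.94), ZXDB (0.931), SNRNP48 (0.928) and USP38 (0.92). For IFIT3 they were H3C6 (0.976), RNF8 (0.975), TMEM184C (0.972), TAF9 (0.967) and SLAIN2 (0.963), and for IFIT5 TAF7 (0.973), AVL9 (0.972), UTP3 (0.969) and PTGFRN (0.964). PLSCR1 and ISG15, both next to IFIT1, stand in the companion list, and no gene named here for IFIT2, IFIT3 or IFIT5 does. The mean of IFIT1, IFIT2 and IFIT3 was followed by TMEM184C (0.981), IKBKB (0.979), BCL2L2 (0.977), ZNF623 (0.976) and PLSCR1 (0.975).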

How the data were processed

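Poly(A) RNA libraries of 12 ARPE-19 cultures in 4 groups, assigned by the treatment in the labels, were analysed. The values are raw gene counts as deposited by the authors, who aligned 60-base reads with STAR 2.7.10b to GRCh38 with Gencode 43 and 4 vector entries and counted them with HTSeq 0.11.1, without normalization or pooling. STAR's own unstranded counts were equal for all 62757 genes. Rows that name no gene held 28 to 37% of the reads listed and stayed out. In R 4.3.3, edgeR 4.0.16 (filterByExpr by group, TMM scaling, quasi-likelihood F test with group as the only term) was fitted to 11 libraries, without control replicate 1 as in the study, and p-values of 13896 genes were adjusted by Benjamini and Hochberg in each of 6 comparisons. The common biological coefficient of variation was 0.101. A gene was called at an adjusted p under 0.05. The standard error is the log2 fold change over the square root of F. Normalized counts are scaled to the geometric mean of the effective sizes of all 12 libraries, and TPM used union exon lengths of Gencode 44, which held 62639 of the 62757 genes. Counts limit precision most for IFIT1 and IFIT2, with 29 to 116 counts per library outside AAV9-AIPL1wt, and intervals and floors rest on reads without molecular identifiers. The fit was run on simulated data in which few genes changed, balanced in direction and with a common spread. That run cannot check the scaling or error rates where as many genes are called as here. Alternatives were other library sets, terms, scalings, GC offsets, filters, DESeq2 1.42.0, limma 3.58.1 (voom), the thresholds of the study, and leaving out each of 11 libraries.

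The 4 members and the 12 gene lists were chosen with earlier results of these data known. Members are named in full. From each list up to 4 tested genes with the largest fold change between AAV9-AIPL1wt and AAV9-AIPL1co are named, with ligands as counts, all counted neighbours of the locus list, and for each member and the mean of IFIT1, IFIT2 and IFIT3 the 5 genes with the highest Pearson's r. The fitted values of IFNE, and ENSG00000232110 for its shared exons, go beyond that rule and were added after values were seen. So do the levels of OAS2 and OASL, given for the filter on counts. Some genes that the rule names are not reported here. The lists hold interferon ligands, receptors and kinases, ISGF3, IRF factors, sensors and adaptors, feedback inhibitors, companion interferon-stimulated genes, capping enzymes, eIF3 and eIF4F, chromosome 10 neighbours, retinal pigment epithelium markers, and blood and immune cell markers.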

Additional observations from a re-analysis of the deposited data

Results flagged for a closer look

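Non-transduced control replicate 1, which was left out of the tests, had 50.4 normalized counts of IFIT1 and 222 of IFIT3, above the other control libraries (30.1 and 43.7 for IFIT1, 150 and 166 for IFIT3). For IFIT2 and IFIT5 it had 88.2 and 314, near the other control values. With it included, IFIT3 with AAV9-AIPL1co was no longer called higher than the control (log2 fold change 0.30, adjusted p = 0.211).

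The pseudogenes IFIT1P1 and IFIT6P had 3 counts each over the 3 AAV9-AIPL1wt libraries and 0 in every other library. The counts of IFIT6P came from 1 library and those of IFIT1P1 from 2. At 3 counts no comparison was possible.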

How the results depend on the processing

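Of the 24 log2 fold changes of members, the 12 with an adjusted p under 0.05 in comparisons of AAV9-AIPL1wt with another group or of IFIT3 between AAV9-AIPL1co and AAV9-GFP kept sign and call at an adjusted p under 0.05 in every alternative fit that was run, though not all under the stricter thresholds of the study. The 26 or 27 alternatives per value gave 593 equal calls of 636, and 8 changes of sign, all of values that did not pass. IFIT5 in AAV9-AIPL1co against the control became 0.25 with GC offsets and 0.28 with these and the replicate block. In AAV9-GFP against the control IFIT1 became 0.056 and 0.078 and IFIT5 0.046 and 0.078 with the same settings. Leaving out each library gave -0.35 to 0.18 for IFIT1 there (above 0 without control replicate 3), and -0.45 to 0.0052 for IFIT2 in AAV9-AIPL1co against AAV9-GFP (above 0 without AAV9-GFP replicate 1). Without control replicate 2 or 3 a lone control library is assumed to vary like the other groups. The first file date alone was run between vectors only, as it holds no fitted control library.

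Members called higher in AAV9-AIPL1co against the control (1) were 0 with all 12 libraries, the file date as a term, both, library size only or the thresholds of the study, 2 with GC offsets with or without the block, and 0 to 2 when 1 library was left out. The member called lower there was lost (0) with GC offsets, with or without the block, and the thresholds of the study, and was 0 to 1 with 1 library left out. The member lower in AAV9-GFP against the control was lost (0) with the file date, the replicate block, the block with GC offsets, relative log expression, upper quartile scaling, GC offsets and the thresholds of the study, and was 0 to 1 with 1 library left out. Of the 2 higher in AAV9-AIPL1co against AAV9-GFP, 1 stayed with all 12 libraries, these with the file date, and limma voom, 0 with the thresholds of the study, and 1 to 2 with 1 library left out. Those thresholds left 2 members higher in AAV9-AIPL1wt against AAV9-GFP and against AAV9-AIPL1co (4 each before) and 2 against the control (3 before). The cause of these changes was not tested.

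Whether replicate numbers pair the libraries was not settled. Over 15 pairs of equal number the correlation of deviations from group means was -0.063 to 0.24, and 4 were over 0.1. Over pairs of different number it was -0.255 to 0.202. Deviations from means of so few libraries cannot decide the question. The replicate block alone changed 1 call, IFIT3 in AAV9-GFP against the control (-0.57, adjusted p = 0.0657). Library size only moved the median of all genes to -0.12 in AAV9-AIPL1wt against the control, and IFIT1, IFIT3 and IFIT5 stayed called. In AAV9-GFP against the control 25.6% of all calls were higher (319 higher, 926 lower), and 38.5% with relative log expression, 40.3% with upper quartile scaling, 18.1% with library size only and 40.8% with GC offsets, which left 31 higher and 45 lower.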

Other observations

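Several genes of the interferon lists were also high in control replicate 1, and those given here were chosen after their values were seen. IFIH1 had 229 normalized counts there against 113 and 108 in the other controls, IRF9 had 63.9 against 26.4 and 24.8, and SOCS3 had 76.5 against 34.9 and 34.7. ISG15 was not raised in it (79.8 against 95.1 and 103).

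Of the 24 companion interferon-stimulated genes tested, 3 were lower and 0 higher with AAV9-GFP than in the control (0 to 4 lower over the alternatives run), against 6.66% of all genes called lower and 2.30% higher.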
